A study of Saccharomyces cerevisiae with 8 samples.

Results

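The nuclear genes for the mitochondrial respiratory chain and ATP synthase of the budding yeast Saccharomyces cerevisiae were followed across 4 groups of RNA-seq libraries. The members were taken by name from the deposited count table, as 34 of its 6534 gene identifiers. The rule names genes by complex and uses no measured level, but the set was chosen with earlier results of these data known. They are 9 subunit genes of cytochrome oxidase (COX4, COX5A, COX5B, COX6, COX7, COX8, COX9, COX12 and COX13) and 9 of the cytochrome bc1 complex (COR1, QCR2, QCR6, QCR7, QCR8, QCR9, QCR10, RIP1 and CYT1). A further 14 belong to ATP synthase (ATP1, ATP2, ATP3, ATP4, ATP5, ATP7, ATP14, ATP15, ATP16, ATP17, ATP18, ATP20, TIM11 and INH1). The last 2 are the NADH dehydrogenases NDI1 and NDE1. All 34 matched a gene of the RefSeq annotation of build R64, and all 34 passed the filter on low counts.

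The study asked where the phenotype of cells without MUB1 comes from. MUB1 encodes a partner of the ubiquitin ligase Ubr2, which marks the transcription factor Rpn4 for degradation. Each genotype, labelled as wild type BMA41 or as its mub1 deletion derivative, was grown for 5 h in defined medium. The dye Calcofluor white (CFW), which binds chitin in the cell wall, was left out (0 µg/ml) or added at 20 µg/ml. Each of the 4 groups has 2 libraries, 8 in all, made from polyadenylated RNA. Nothing in the labels says that the duplicates came from separate cultures, so p-values measure the spread between these libraries, which may be technical.

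In yeast mitochondria, electrons enter the chain through single-protein NADH dehydrogenases and succinate dehydrogenase, pass by coenzyme Q to the cytochrome bc1 complex, and travel on cytochrome c to cytochrome oxidase, which reduces oxygen. The proton gradient so made drives ATP synthase. On glucose these genes are held low by catabolite repression, and many are activated through CCAAT boxes by the Hap2/3/4/5 complex, some also by the heme-responsive factor Hap1, while Rox1 represses hypoxic genes such as COX5B when oxygen is present.

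The libraries held 24147195 to 31677985 counts each. MUB1 stood at 1042 to 1226 counts where the label is wild type and at 0 to 1 where it is mub1. The 2 genotypes also differed in 4 nutritional marker genes: LEU2, URA3 and MET17 had 0 to 2 counts in wild type and 2621 to 7122 in mub1, and TRP1 had 909 to 989 in wild type and 0 in mub1. The deletion and these marker differences part the same libraries and cannot be told apart in any genotype comparison given here. Although the labels name BMA41 for both genotypes, the strains may differ in background beyond these genes, which was not tested, so a genotype difference is one between these strains and not of the deletion alone. Levels are CPM (counts per library size, after TMM scaling), and differences are log2 fold changes ± SE from edgeR's quasi-likelihood test, called at a Benjamini-Hochberg adjusted p under 0.05 over 5954 genes. The members had 1578 to 60723 counts in a library, so counting error is small for all of them.

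The promoters of 6 members are shown because they span what follows: the strongest and the weakest responses to genotype, the COX5 isoform pair, the sole member with a Hap1 site, and CYT1 as a member with none of the motifs searched. Each is the stretch from 300 to 101 bases before the start codon of the S288C reference, build R64, read 5′ to 3′ on the strand of the gene. Capitals mark matches on either strand to CCAAT, which reads ATTGG from the other strand, and to CCAATNA, which contains CCAAT. They also mark the Hap1 site, made of CGG, 3 free bases, TA, 1 free base and CGG, and the Rox1 core ATTGTTC. COX5A lies at chrXIV:531425-531624 (plus strand), RIP1 at chrV:106960-107159 (plus), QCR6 at chrVI:224870-225069 (minus), CYT1 at chrXV:447139-447338 (plus), COX5B at chrIX:154922-155121 (plus) and ATP15 at chrXVI:29779-29978 (plus).
COX5A: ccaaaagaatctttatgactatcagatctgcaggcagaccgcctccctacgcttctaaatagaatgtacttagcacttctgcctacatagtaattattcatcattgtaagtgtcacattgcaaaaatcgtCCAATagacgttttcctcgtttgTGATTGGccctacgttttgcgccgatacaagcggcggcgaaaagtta
RIP1: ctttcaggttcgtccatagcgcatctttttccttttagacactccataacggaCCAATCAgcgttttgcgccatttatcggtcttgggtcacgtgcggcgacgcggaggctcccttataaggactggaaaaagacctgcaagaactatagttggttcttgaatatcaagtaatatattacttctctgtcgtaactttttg
QCR6: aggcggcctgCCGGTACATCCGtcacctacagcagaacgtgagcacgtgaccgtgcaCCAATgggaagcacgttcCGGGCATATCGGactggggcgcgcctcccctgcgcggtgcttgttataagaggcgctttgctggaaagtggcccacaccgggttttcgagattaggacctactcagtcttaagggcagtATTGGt
CYT1: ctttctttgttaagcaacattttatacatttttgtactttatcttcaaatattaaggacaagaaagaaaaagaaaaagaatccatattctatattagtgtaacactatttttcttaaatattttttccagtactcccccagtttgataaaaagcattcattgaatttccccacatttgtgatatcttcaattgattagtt
COX5B: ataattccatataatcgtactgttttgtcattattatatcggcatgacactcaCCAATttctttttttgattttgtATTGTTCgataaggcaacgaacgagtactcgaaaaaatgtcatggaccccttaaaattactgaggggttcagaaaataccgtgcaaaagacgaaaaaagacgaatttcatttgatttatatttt
ATP15: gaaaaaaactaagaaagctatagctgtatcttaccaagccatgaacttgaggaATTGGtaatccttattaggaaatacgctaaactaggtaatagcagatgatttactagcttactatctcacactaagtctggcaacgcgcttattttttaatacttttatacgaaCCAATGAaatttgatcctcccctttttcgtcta

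The CCAAT box was found in this window of 31 of the 34 members (91.2%), against 30.7% of 6001 promoters in the genome. It was present in all 14 ATP synthase promoters, in 8 of 9 for cytochrome oxidase, in 7 of 9 for cytochrome bc1 and in both NADH dehydrogenase promoters. COX4, CYT1 and COR1 had none there, and COR1 had 2 farther upstream. The longer CCAATNA was found in 26 members (76.5%), against 10.6% of all promoters. QCR6 held 2 matches to the Hap1 site, which occurred in 7 of the 6001 promoters (0.117%). The Rox1 core was found in 3 members (8.82%), COX5B and QCR2 among them, against 4.87% of all promoters. Within 500 bases of the start codon the CCAAT share was 94.1% of the members and 62.4% of 6000 promoters. Such matches describe the letters of the reference strain, and no binding was measured. As the printed sequences show, CCAAT is carried by RIP1 and COX5A, with the largest genotype differences, and by ATP15 and COX5B, with the smallest.

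**Figure D1:**
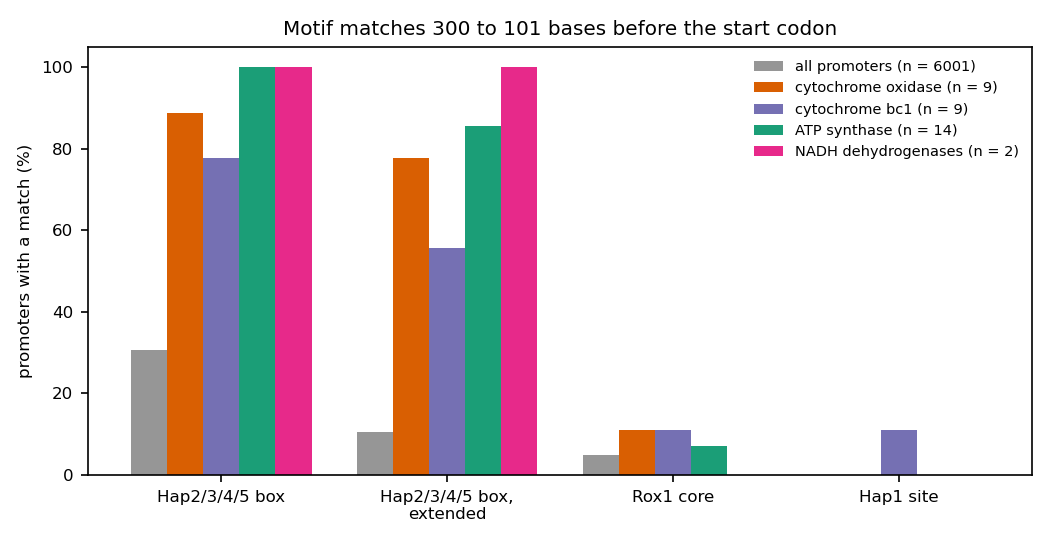
Share of promoters with each motif, in percent, among the members by complex and among all promoters of the genome, over the window from 300 to 101 bases before the start codon. The Hap2/3/4/5 box stands at 77.8% to 100% in the 4 sets and at 30.7% of all promoters, and its extended form at 55.6% to 100% and 10.6%.

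Without CFW, the libraries labelled mub1 carried more of nearly every respiratory transcript than wild type. Of the 34 members, 32 rose, none fell and 2 did not pass the test, while 22.1% of all tested genes rose. The median log2 difference was 0.70 over the members, a 1.62-fold difference, and -0.01 over all tested genes. Both mub1 libraries lay above both wild-type libraries for 33 members and below them for 1, against 37.8% and 39.7% of all genes. Together the members took 0.935% to 0.948% of the counts in the wild-type libraries and 1.45% to 1.65% in the mub1 libraries.

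**Figure D2:**
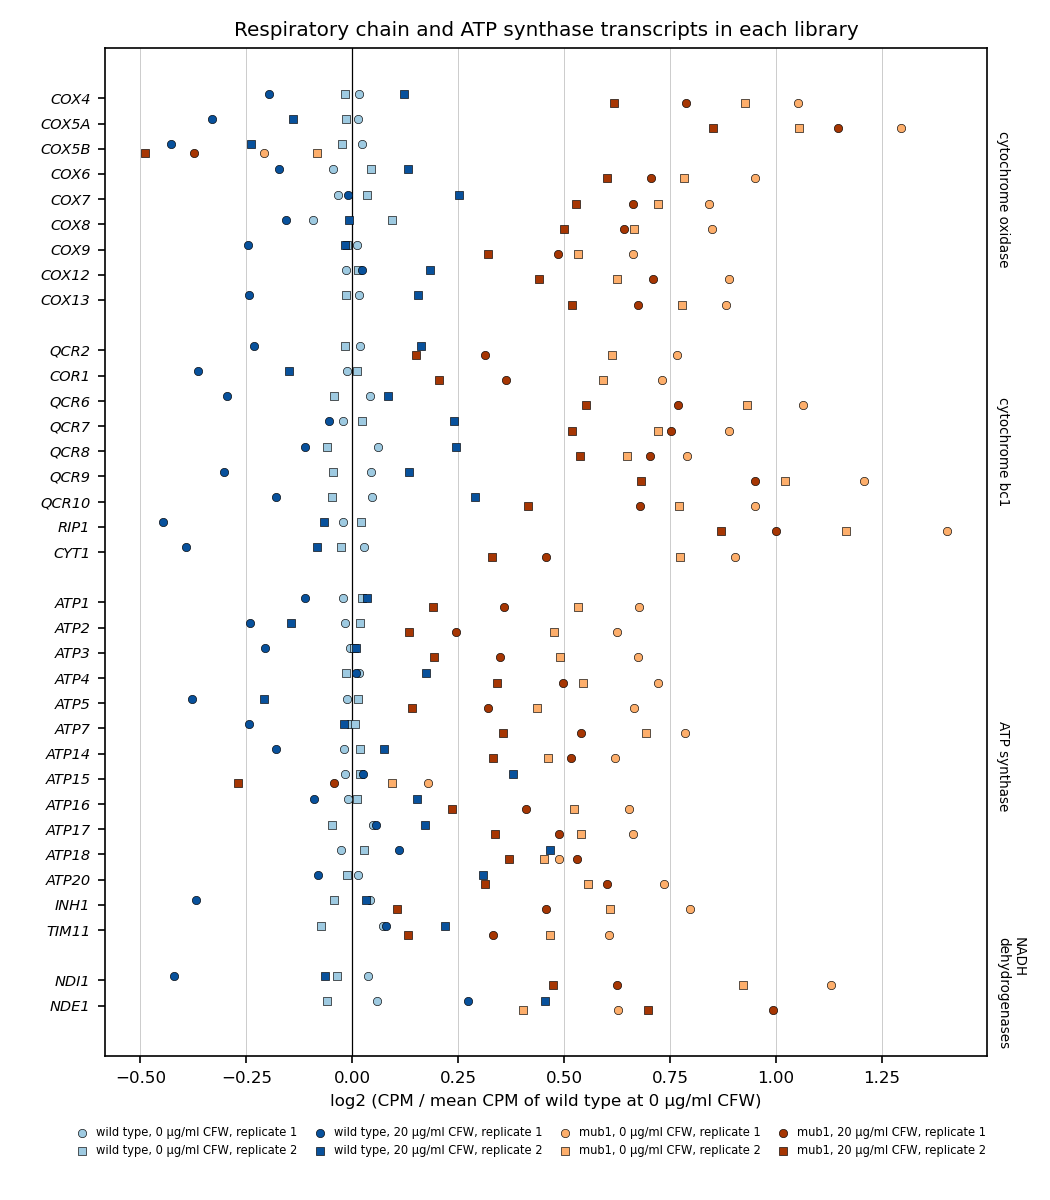
Level of each member in each of the 8 libraries, as log2 of its CPM over its mean in wild type at 0 µg/ml CFW, with the members grouped by complex, 1 colour per group and 1 marker shape per replicate. The 2 mub1 libraries without CFW lie to the right of both wild-type libraries without CFW for 33 of 34 members, and COX5B lies to the left.

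The bc1 complex showed the highest median of the 4 sets, 0.84, with 9 of 9 members higher. Cytochrome oxidase had a median of 0.78 with 8 of 9 higher, the NADH dehydrogenases 0.77 with 2 of 2, and ATP synthase 0.59 with 13 of 14. The ranges were 0.66 to 1.29 for bc1, -0.14 to 1.18 for cytochrome oxidase, 0.52 to 1.03 for the dehydrogenases and 0.14 to 0.74 for ATP synthase. The subunits of a complex were measured in the same libraries and are not replicates, so the complexes are compared by these values alone, with no test.

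Among the catalytic subunits of bc1, RIP1, the Rieske iron-sulfur protein (YEL024W, chromosome V, 107260 to 107907), had the largest rise of all members. Its level was 208.8 and 215.0 CPM in wild type and 560.6 and 475.3 CPM in mub1, without CFW. The groups were far apart relative to their spread, and the log2 difference was 1.29 ± 0.13 (edgeR, adjusted p = 0.000104). CYT1, which encodes cytochrome c1, stood at 292.6 and 281.8 CPM in wild type and 537.1 and 491.0 CPM in mub1, a difference of 0.84 ± 0.11 (edgeR, adjusted p = 0.000398). Both mub1 values were above both wild-type values.

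The core proteins of bc1, COR1 and QCR2, rose least within the complex. COR1 was at 498.1 and 506.2 CPM in wild type and 833.8 and 756.8 CPM in mub1, a difference of 0.66 ± 0.11 (edgeR, adjusted p = 0.00115). QCR2 differed by 0.69 ± 0.13 (adjusted p = 0.00266). The small subunits spread more widely, from 0.72 for QCR8 to 1.12 for QCR9. QCR6, the acidic hinge protein and the member with 2 Hap1 matches, rose by 1.0 ± 0.13 (edgeR, adjusted p = 0.000397).

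In cytochrome oxidase the alternative forms of subunit V went separate ways: 1 rose and the other did not pass the test. COX5A (YNL052W, chromosome XIV, 531725 to 532186) encodes the form made with oxygen, and COX5B (YIL111W, chromosome IX, 155222 to 155765) the hypoxic form. COX5A was at 186.3 and 182.7 CPM in wild type and 452.8 and 383.1 CPM in mub1, with no overlap and a difference of 1.18 ± 0.12 (edgeR, adjusted p = 0.000102). COX5B was at 244.8 and 237.1 CPM in wild type and 208.5 and 227.4 CPM in mub1, a difference of -0.14 ± 0.08 that did not pass the test (edgeR, adjusted p = 0.195). Its mub1 values were the lower ones, the opposite order to the other 33 members.

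Per kilobase of coding sequence, COX5A stood below COX5B in every wild-type library and above it in every mub1 library. The ratio of COX5A to COX5B was 0.751 and 0.761 in wild type without CFW, 0.809 and 0.810 with CFW, 2.14 and 1.66 in mub1 without CFW, and 2.17 and 1.91 with CFW. The genotypes did not overlap in either medium. COX5A thus made up 42.9% to 44.8% of the pair in wild type and 62.5% to 68.4% in mub1. Since the treatment of reads with several alignments is not given in the sources used here, reads shared by this related pair could have been split or dropped.

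**Figure D3:**
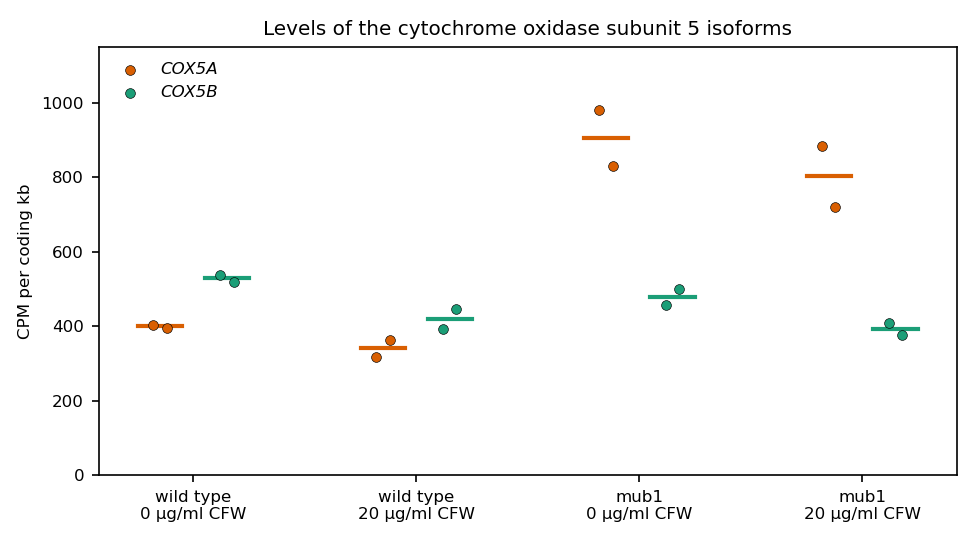
COX5A and COX5B levels per kilobase of coding sequence (CPM per kb) in each library by group, with a point per library and a line at the group mean. In the 4 wild-type libraries COX5A lies below COX5B, with ratios of 0.751 to 0.810, and in the 4 mub1 libraries above it, with ratios of 1.66 to 2.17.

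The other 7 cytochrome oxidase genes rose by 0.60 to 0.99. COX4, the zinc-binding subunit IV, was highest among them at 0.99 ± 0.11 (edgeR, adjusted p = 0.000158). COX9, the subunit with the highest level per kilobase of all members in untreated wild type (1069 CPM per kb), rose least at 0.60 ± 0.10 (adjusted p = 0.00108).

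ATP synthase had the lowest median of the 4 sets. ATP1 and ATP2 encode the alpha and beta subunits of its catalytic head and ATP3 the central gamma shaft, and they differed by 0.61, 0.55 and 0.58. ATP2 was at 1607 and 1646 CPM in wild type and 2506 and 2262 CPM in mub1, without overlap (0.55 ± 0.11, edgeR, adjusted p = 0.00349). The ratio of ATP2 to ATP1 per kilobase stayed between 2.91 and 3.31 over the 8 libraries. The subunits of the peripheral stalk (ATP4, ATP5, ATP7 and ATP14) differed by 0.54 to 0.74. ATP7 had the largest rise of the enzyme, from 302.8 and 305.7 CPM to 524.6 and 492.0 CPM (0.74 ± 0.10, edgeR, adjusted p = 0.000489).

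ATP15, the epsilon subunit of the central stalk (YPL271W, chromosome XVI, 30079 to 30267), had the smallest difference within the enzyme. It was at 171.5 and 175.8 CPM in wild type and 196.6 and 185.2 CPM in mub1, a difference of 0.14 ± 0.12 that did not pass the test (edgeR, adjusted p = 0.37). Its neighbour in the stalk, the delta subunit ATP16, rose by 0.59 ± 0.10 (adjusted p = 0.00159). The membrane subunits ATP17, ATP18, ATP20 and TIM11 differed by 0.47 to 0.65. ATP18 lost its call without the first wild-type library or the first mub1 library at 0 µg/ml, with an adjusted p of up to 0.0572. TIM11 and ATP20 encode the subunits e and g that hold the enzyme in dimers.

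INH1, the inhibitor that blocks ATP hydrolysis when the gradient collapses, rose with the enzyme it acts on. Its level was 82.55 and 77.82 CPM in wild type and 139.4 and 122.2 CPM in mub1, without overlap (0.71 ± 0.15, edgeR, adjusted p = 0.00452).

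Both dehydrogenases rose. NDI1, which oxidises NADH in the matrix, was at 502.9 and 477.8 CPM in wild type and 1073 and 928.2 CPM in mub1 (1.03 ± 0.13, edgeR, adjusted p = 0.00037). NDE1, which oxidises cytosolic NADH at the outer face of the inner membrane, was at 603.6 and 556.5 CPM in wild type and 895.3 and 766.6 CPM in mub1 (0.52 ± 0.13, adjusted p = 0.0111). For both genes the mub1 libraries were the higher ones without overlap. The NDE1 call was lost without the second wild-type library or the first mub1 library at 0 µg/ml, with an adjusted p of up to 0.0994.

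**Figure D4:**
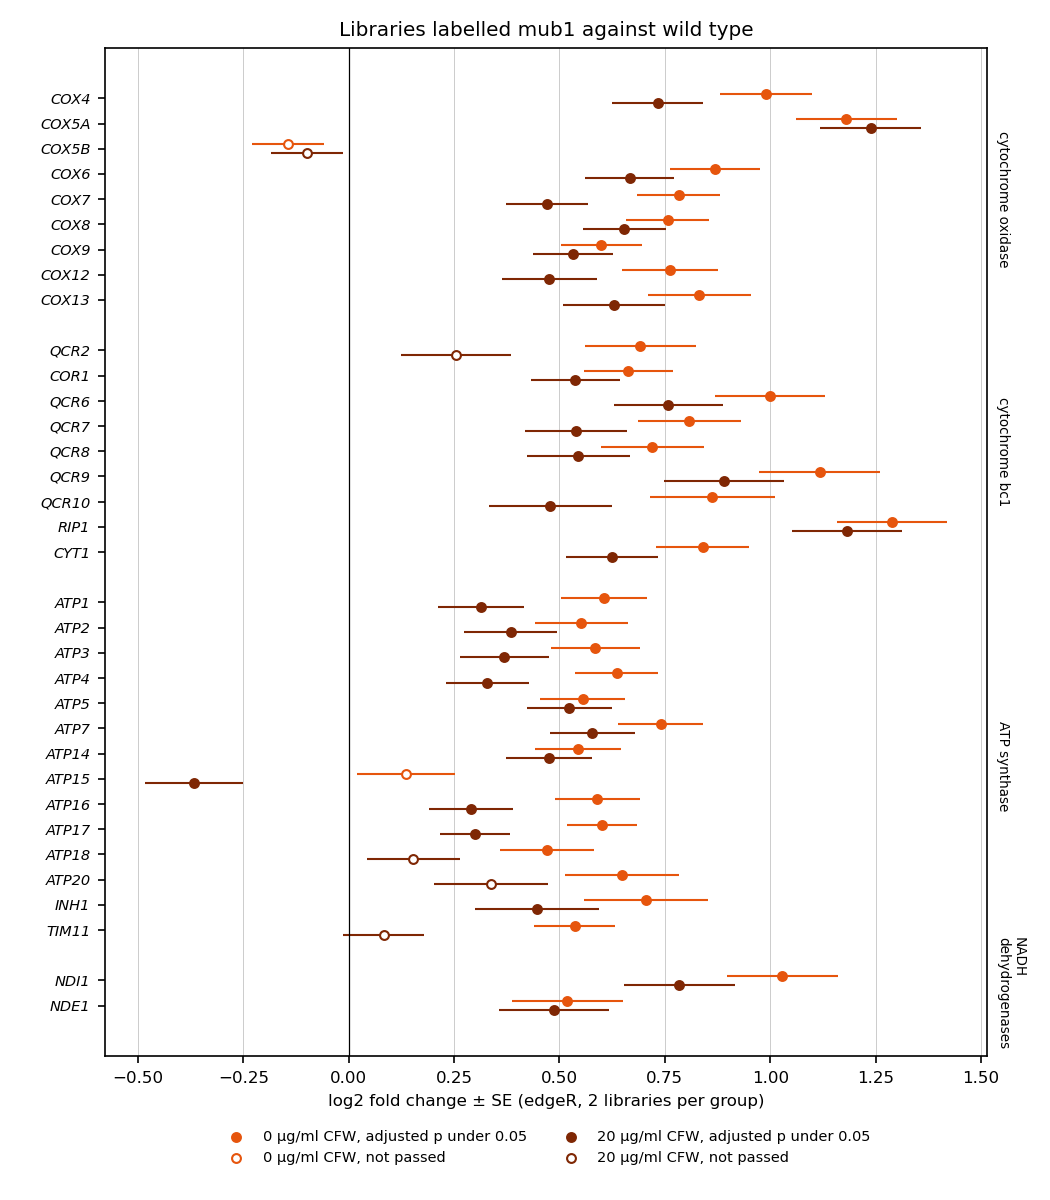
Log2 fold change of mub1 against wild type ± SE for each member, grouped by complex, without CFW and with 20 µg/ml CFW, with filled points for an adjusted p under 0.05. Without CFW 32 of 34 points are filled and lie to the right of 0, and with CFW 28 are filled to the right and ATP15 to the left.

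With CFW in both genotypes, 28 members were higher in mub1, ATP15 was lower and 5 did not pass, while 18.6% of all genes were higher and 17.3% lower. The median difference over the members was 0.48, with 0.63 for cytochrome oxidase, 0.54 for bc1, 0.64 for the dehydrogenases and 0.33 for ATP synthase. COX5A and RIP1 again had the largest rises. COX5A was at 146.8 and 167.4 CPM in wild type and 408.3 and 332.8 CPM in mub1 (1.24 ± 0.12, edgeR, adjusted p = 9.19e-05). RIP1 was at 155.4 and 202.2 CPM in wild type and 424.1 and 387.4 CPM in mub1 (1.18 ± 0.13, adjusted p = 0.000186). Neither gene's groups overlapped.

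The members that did not pass with CFW were COX5B (-0.10 ± 0.09), QCR2 (0.26 ± 0.13), ATP18 (0.15 ± 0.11), ATP20 (0.34 ± 0.14) and TIM11 (0.08 ± 0.10). Of these, ATP20 alone had no overlap between the groups, and QCR2, ATP18 and ATP20 passed as higher without the second treated wild-type library. ATP15 fell: it was at 176.8 and 225.8 CPM in wild type and 168.4 and 143.9 CPM in mub1, a difference of -0.37 ± 0.12 (edgeR, adjusted p = 0.0355). Both mub1 values lay below both wild-type values. This call was lost in 7 of 14 alternatives, among them the fits without either untreated wild-type library, the second treated wild-type library, the first untreated mub1 library or the second treated mub1 library, with an adjusted p of up to 0.23.

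Of the members higher with CFW, ATP16 (0.29 ± 0.10, adjusted p = 0.0483), ATP1 (0.31 ± 0.10, adjusted p = 0.0381) and INH1 (0.45 ± 0.15, adjusted p = 0.0407) were nearest the threshold in edgeR's test, and each lost its call in at least 9 of 14 alternatives. ATP16 (adjusted p of up to 0.3) and ATP1 (up to 0.251) lost it when any library but the second treated wild-type one was left out, and INH1 (up to 0.3) when any but that one and the second treated mub1 library was. Without the first treated mub1 library fewer of the members passed, and fewer of all genes. QCR10, ATP2 and ATP4 each lost their call in 5 of 14 alternatives and ATP3 in 3. The dehydrogenases NDI1 (0.78 ± 0.13, edgeR, adjusted p = 0.0017) and NDE1 (0.49 ± 0.13, adjusted p = 0.0174) were both higher in mub1. The NDE1 call was lost with only the 4 libraries compared and without the first treated mub1 library.

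In wild type, CFW left most respiratory transcripts within the spread of the libraries. COX5B fell, and the other 33 members did not pass the test, while 8.7% of all genes fell and 10.3% rose, 19.0% in all. Both treated libraries lay above both untreated ones for 6 members and below them for 10, against 27.4% and 31.4% of all genes. The median log2 difference was -0.03 over the members. COX5B went from 244.8 and 237.1 CPM to 179.0 and 203.9 CPM, without overlap (-0.33 ± 0.09, edgeR, adjusted p = 0.0266). The call was lost when scaled by library totals alone and with only the 4 libraries compared. It was also lost without either untreated wild-type library or without the first treated mub1 library.

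The treated wild-type duplicates differed more than any other pair. All 34 members were higher in the second library than in the first, by 0.10 to 0.47 on the log2 scale with a median of 0.26, while 51.1% of all genes were. The variance between these duplicates was 75.88 times that of counting, against 11.38 to 29.61 for the other pairs. The median over the members was 0.13 without the first treated library and -0.19 without the second. A shift of the same sign over the members also parted the mub1 duplicates: the second library was lower for 33 of 34 members without CFW (median -0.15) and for 34 of 34 with CFW (median -0.17). In untreated wild type 16 of 34 were higher in the second library. What sets these shifts between duplicates was not tested.

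In the libraries labelled mub1, CFW lowered part of the respiratory transcripts. Of the 34 members, 9 fell, none rose and 25 did not pass, while 14.0% of all genes fell. The 9 were COR1, QCR2 and CYT1 of bc1, ATP1, ATP2, ATP5 and TIM11 of ATP synthase, COX5B of cytochrome oxidase, and NDI1. The estimate was negative for 33 of 34 members, and both treated libraries lay below both untreated ones for 26, against 35.1% of all genes. The median was -0.29 over the members, -0.34 for bc1, -0.29 for ATP synthase and -0.19 for cytochrome oxidase.

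CYT1 went from 537.1 and 491.0 CPM to 394.5 and 361.1 CPM, the clearest fall by its p (-0.44 ± 0.11, edgeR, adjusted p = 0.0163). NDI1 went from 1073 and 928.2 CPM to 756.4 and 681.1 CPM (-0.48 ± 0.13, adjusted p = 0.0251). For both genes the treated libraries were lower without overlap, and both treated values still lay above those of untreated wild type. Further falls were -0.38 ± 0.11 for COR1 (adjusted p = 0.0272), -0.46 ± 0.13 for QCR2 (adjusted p = 0.0282), -0.29 ± 0.09 for COX5B (adjusted p = 0.0339) and -0.36 ± 0.11 for ATP2 (adjusted p = 0.037), all from edgeR. The count of 9 rests on single libraries. All 9 lost their call without the first untreated mub1 library or without either treated one. Fewer members passed without the second untreated mub1 library or either untreated wild-type library, and more without either treated wild-type library. The number of all genes passing moved in the same direction each time. The wild-type libraries enter through the shared estimate of spread.

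NDE1 was the sole member with a positive estimate in mub1, from 895.3 and 766.6 CPM to 1154 and 940.1 CPM (0.33 ± 0.13, edgeR, adjusted p = 0.0839). In wild type it went from 603.6 and 556.5 CPM to 699.8 and 795.0 CPM (0.37 ± 0.13, adjusted p = 0.0807). In both genotypes the treated libraries were above the untreated ones, and in neither did the difference pass the test. It passed in wild type by DESeq2 and without the first treated wild-type library. In mub1 it passed by DESeq2, with only the 4 libraries compared and without either treated wild-type library. NDI1, its matrix counterpart, had estimates of the opposite sign in both genotypes.

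**Figure D5:**
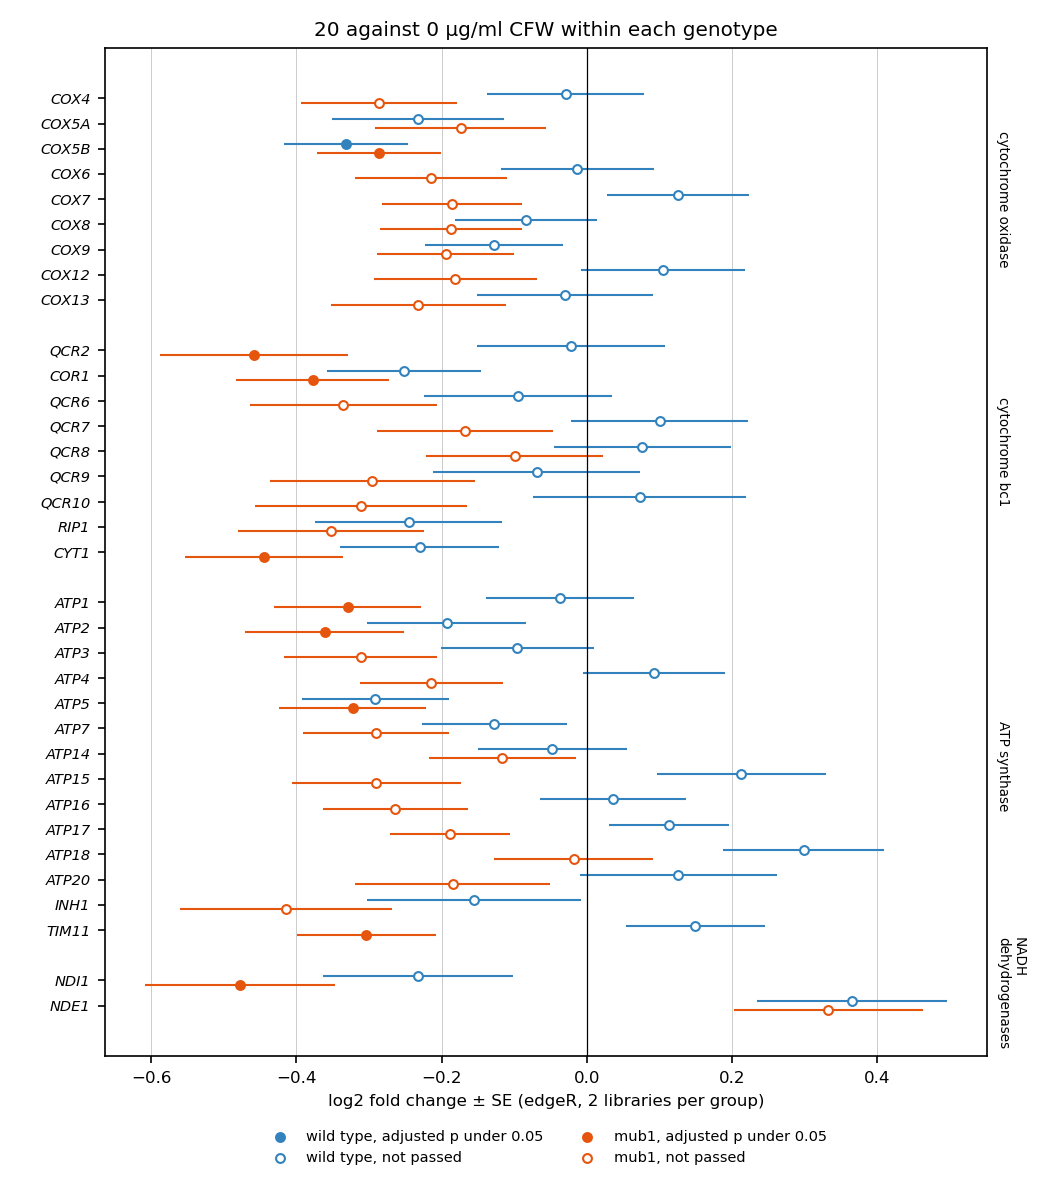
Log2 fold change of 20 against 0 µg/ml CFW ± SE for each member, grouped by complex, in wild type and in mub1, with filled points for an adjusted p under 0.05. In mub1 33 of 34 points lie to the left of 0, with 9 filled, and NDE1 lies to the right in both genotypes. COX5B is the filled point of wild type.

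Whether the response to CFW differed between the genotypes was tested as an interaction. None of the 34 members passed it in edgeR's test, against 2.5% of all genes (0.89% with a higher and 1.61% with a lower response), and the lowest adjusted p was 0.0951. At an unadjusted p under 0.05 there were 5, all with a lower response in mub1. DESeq2 called 1 member, against 9.6% of all genes. The estimate was negative for 32 of 34 members, with a median of -0.23, and the exceptions were COX5A and COX5B. That median rests on the treated wild-type libraries: without the second of them it was -0.05 over the members, -0.03 for cytochrome oxidase, -0.04 for bc1 and -0.12 for ATP synthase. The largest were ATP15 at -0.50 ± 0.16 (edgeR, adjusted p = 0.118) and TIM11 at -0.45 ± 0.14 (adjusted p = 0.0951). Without the first treated wild-type library the median was -0.36 for cytochrome oxidase and -0.42 for bc1. A different response of the members in mub1 is therefore not shown by all 8 libraries, although the falls passed the test in mub1 and, but for COX5B, not in wild type.

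Other genes of the same pathways gave the setting. CYC1, the major cytochrome c, had the largest genotype difference of the genes listed around the chain: 45.95 and 49.93 CPM in untreated wild type against 392.0 and 329.6 CPM in mub1 (2.91 ± 0.10, edgeR, adjusted p = 7.79e-08). CYC7, the hypoxic form, did not pass without CFW (0.10 ± 0.13). With CFW it was at 174.3 and 196.2 CPM in wild type and at 315.2 and 231.5 CPM in mub1, without overlap. All 4 succinate dehydrogenase genes were higher in mub1 without CFW, against 22.1% of all genes, SDH2 among them at 1.02 ± 0.13. With CFW 2 of the 4 were higher, against 18.6% of all genes. All 4 fell with CFW in mub1, against 14.0% of all genes. These calls were not checked with a library left out. Of 2 further small subunits, COX26 was higher at 1.45 ± 0.15 and ATP19 did not pass at 0.39 ± 0.15. NDE2, the second external NADH dehydrogenase, was higher at 0.94 ± 0.17.

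Genes that assemble the complexes moved in part. Without CFW, 18 of 29 genes for cytochrome oxidase assembly and expression were higher in mub1 and 1 lower, as were 7 and 1 of 10 for bc1, and 7 and 0 of 12 for ATP synthase. Of 11 genes for coenzyme Q synthesis 6 were higher and none lower. Of all tested genes 22.1% were higher and 20.8% lower. COX10, the farnesyltransferase that makes heme O, the precursor of heme A, was higher by 1.23 ± 0.10, and ATP12, a chaperone for the alpha subunit, by 0.84 ± 0.11. With CFW, 24 of the 29 cytochrome oxidase assembly genes fell in mub1 and 10 in wild type, against 14.0% and 8.7% of all genes. SCO1, a copper chaperone, was among them, by -0.67 ± 0.07 in mub1 and -0.66 ± 0.07 in wild type. The counts for these lists were not checked with a library left out, which changed the members' calls for CFW.

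The regulators did not all move together. Of 7 listed, 4 were higher in mub1 without CFW, 1 (HAP1) was lower and 2 did not pass. Of all genes 22.1% were higher and 20.8% lower there. With CFW 0 were higher and 2 lower, against 18.6% and 17.3% of all genes. HAP2, of the CCAAT-binding complex, was at 61.39 and 63.36 CPM in untreated wild type and 99.84 and 91.53 CPM in untreated mub1. HAP1, the heme-responsive activator, was at 185.7 and 190.0 CPM in untreated wild type and 115.7 and 109.0 CPM in mub1 (-0.74 ± 0.08, edgeR, adjusted p = 0.000135), and was also lower with CFW (-0.70 ± 0.08). HAP4, the activating subunit of the CCAAT-binding complex, was higher in mub1 without CFW by 0.34 ± 0.12 (adjusted p = 0.0447) and not with CFW (0.09 ± 0.12). ROX1 was higher without CFW by 0.75 ± 0.08 (adjusted p = 0.000141). Of 7 genes listed as hypoxic, 1 was higher and 4 lower in mub1 without CFW, against 22.1% and 20.8% of all genes. The 1 higher was ROX1 itself, the repressor, which stood in both lists. The part of these regulators in the members' levels was not tested.

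The subunits made inside mitochondria were nearly absent from these polyadenylated libraries. COX1, COX2 and COX3 had 2 to 36 counts in a library, and COB, ATP6, ATP8 and OLI1 had 0 to 4, so the balance between nuclear and mitochondrial subunits could not be followed at this depth.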

How the data were processed

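The deposited file holds raw read counts per gene for the 8 libraries, which the authors made with FastQC 0.12.1, HISAT2 2.2.1 and featureCounts 2.0.3 on build R64, per the submitters' processing notes. The strand setting is not given in the sources used here. Of 6534 identifiers, 5864 matched RefSeq. No annotated gene overlaps a member, and overlap with the 670 unmatched identifiers was not checked. In R 4.3.3, edgeR 4.0.16 (filterByExpr, TMM factors of 0.9793 to 1.0235, glmQLFit and glmQLFTest) fitted 1 mean per group over 5954 genes with 99.997% of the counts, which left 4 residual degrees of freedom. The SE is the absolute log2 fold change over the square root of F. A count of 0 allows up to 3 counts (0.0947 to 0.124 CPM), which covers counting error only. DESeq2 1.42.0, other scalings, no filter, a replicate block, 4-library fits and leaving out each library were the alternatives. Replicate numbers were not taken as pairs: the labels name none. The steps were first tested on simulated data. Of changes of 0.5 log2 put into 100 genes, the interaction test recovered 19% and the other comparisons 56% to 68%. Of changes of 1 log2 they recovered 82% and 86% to 95%.

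A promoter table had been planned for. Promoters were instead read from the R64 genome by coordinates, relative to the start codon. Named in full were, per complex, the largest and smallest genotype responses, 7 members set by name, the members that passed for CFW (up to 6 by p), and those that did not pass without CFW. For the other lists, regulators set by name and up to 3 genes with the smallest p were eligible. Further members, such as COX4, COX9, QCR6, QCR8, QCR9, ATP1, ATP3 and ATP16, were named after their values were seen. The members and lists were chosen with earlier results of these data known.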

Additional observations from a re-analysis of the deposited data

Results flagged for a closer look

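No member met a rule for closer inspection. Of the genes listed around the chain, 4 passed edgeR's interaction test of genotype and CFW, against 2.5% of all genes. The lists held 111 entries, with some genes entered more than once and 5 entered only to check the labels. These 4 calls were not checked with a library left out. NDE2, the external NADH dehydrogenase related to NDE1, was at 32.74 and 33.41 CPM in untreated and 40.42 and 62.7 CPM in treated wild type, and at 67.98 and 59.27 CPM in untreated and 42.04 and 45.12 CPM in treated mub1. Its response in mub1 minus that in wild type was -1.19 ± 0.24 (adjusted p = 0.0419). PET117, a cytochrome oxidase assembly factor, gave -0.67 ± 0.14 (adjusted p = 0.0396), ROX1 gave -0.56 ± 0.11 (adjusted p = 0.0398), and HEM13, a heme synthesis enzyme repressed by oxygen, gave 1.0 ± 0.18 (adjusted p = 0.0282).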

How the results depend on the processing

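The count of members higher in mub1 without CFW was 32 under both other scalings, DESeq2, no filter, the replicate block and the fit to 4 libraries, and 30 to 32 when a library was left out. With CFW, 29 passed, against 19 with only the 4 libraries compared and 15 to 31 with a library left out. For CFW in wild type, 1 passed, against 0 by library totals, 2 by DESeq2, 0 with the 4 libraries and 0 to 7 with a library left out. For CFW in mub1, 9 passed, against 4 by upper-quartile scaling, 5 by library totals, 17 by DESeq2 (16 lower), 22 with the 4 libraries and 0 to 26 with a library left out. For the interaction, 0 passed, against 1 by DESeq2 and 0 to 21 with a library left out. The replicate block gave 32, 25, 1, 5 and 0 in the same order. Correlations of deviations between libraries of 1 number ran from -0.161 to 0.168. With a library left out, mub1 against wild type with CFW ranged from -0.026 to 0.34 for ATP18 and from -0.024 to 0.18 for TIM11, and its negative values were not past the threshold. The causes were not tested. Medians of a complex moved by less than the spread between replicates in 330 cases and by more in 15, which came from leaving out a treated wild-type library. The spread between duplicates, not depth, limits the members' values, since their counts are high.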
